A study of Mus musculus with 4 samples.

Results

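The data described here are the whole epidermis 1 week after genetic loss of ΔNp63, read as 2 summed single-cell libraries. Every cell barcode of the 1-week control and 1-week ablated libraries with at least 1059 gene UMIs (unique molecular identifiers, each marking 1 captured RNA molecule) and at most 15% mitochondrial UMIs was used, and the UMIs were summed per library without clustering. These rules kept 32905 of the 109216 barcodes listed in the 4 libraries of the study, 14579 from the control and 18326 from the ablated library. The other 2 libraries were collected 1 day after ablation and are cited only side by side.

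Both groups were adult mice that carried the floxed ΔNp63 allele on both chromosomes. Control mice were DNp63fl/fl without Cre, and ablated mice were DNp63fl/fl;K14-CreT2, whose tamoxifen-dependent Cre is driven by the keratin 14 promoter, active in basal keratinocytes. Both genotypes received tamoxifen by gavage at 200 mg/kg on 5 consecutive days, so that the drug was shared and Cre was not. Their ages ranged from 2 to 17 months, males and females were used, and back-skin epidermis was lifted with 0.25% trypsin at 4 °C or at 37 °C. The labels do not say which ages, sexes, number of animals or digestion went into which library. The 1-week libraries were made with the 5′ kit and the 1-day libraries with the 3′ kit. Each group is 1 library, so differences between animals, digestions and genotypes cannot be told apart, and no test between groups was possible. Intervals below are exact and cover counting error only.

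ΔNp63, the main epidermal product of Trp63, is a transcription factor of the p53 family that maintains the basal layer of stratified epithelia. Basal keratinocytes are held to the basement membrane by hemidesmosomes and express keratins 5 and 14. As they move outward they switch to keratins 1 and 10, then fill with loricrin, filaggrin and small proline-rich proteins that are cross-linked into the cornified envelope. Injured or inflamed epidermis makes keratins 6, 16 and 17, alarmins and cytokines.

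The label of epidermis was borne out by the marker sums. Levels are given as UMIs per 1000000 gene UMIs of the library (CPM). The 9 basal keratinocyte markers used summed to 20912 CPM (control) and 16409 CPM (ablated), and a list of 8 spinous markers to 17933 and 14307 CPM. Markers of fibroblasts summed to 931 and 765 CPM, those of endothelial cells to 32.3 and 73.3 CPM and those of all leukocytes to 182 and 176 CPM. In such sums, fewer cells of a type and less RNA per cell cannot be told apart.

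The libraries differed in depth per barcode. The control sum held 80943166 UMIs with a median of 3881 UMIs and 1634 genes per barcode, and the ablated sum held 68044665 UMIs with medians of 1618 UMIs and 939 genes. Barcodes of 3000 or more UMIs were 8488 of the control and 4083 of the ablated set. Mitochondrial RNA made up 1.70% of the control sum and 2.04% of the ablated sum, and ribosomal protein genes 18.1% and 13.1%, with counting intervals narrower than the last digit shown. The 2 libraries shared 411 barcode sequences. The floor of 1059 UMIs was the lowest count listed in the ablated library, whereas the control list reached down to 500 and lost 10419 barcodes to it. In the 100 UMIs just under the floor, 1277 control barcodes had a median of 643 genes, with Krt14 at 6122 CPM and Krt10 at 4976 CPM. In the 100 UMIs from the floor up, 1004 control barcodes had 689 genes, Krt14 at 5945 CPM and Krt10 at 5130 CPM. The 2022 ablated barcodes of that range had 711 genes, Krt14 at 8564 CPM and Krt10 at 1813 CPM. Control barcodes on either side of the floor were thus near each other in these keratins, and the ablated barcodes just inside it stood apart from both. At the mitochondrial limit, 6 control and 10 ablated barcodes lay between 14% and 15%, and 6 and 7 lay between 15% and 16%.

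Trp63 itself (chr16:25683763-25892102, GRCm38) was read first. It had 33857 control UMIs and 9524 ablated UMIs, or 418 and 140 CPM. The log2 ratio of ablated over control was −1.58, with a 95% interval of −1.61 to −1.55. In barcodes of 3000 or more UMIs the log2 ratio was −1.68, in those under 3000 it was −1.38, and in the 1-day libraries it was −1.80. Trp63 RNA was therefore lower in the library labelled ablated at both depths, and some was still counted there; its direction is that of the genotype label. The count covers the whole gene, so ΔNp63 and the longer TAp63 forms were not separated, and whether the 5′ tags lie in the deleted part is not given in the sources used here.

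Across the transcriptome, 13590 genes had at least 100 UMIs in both libraries together and are called counted below. Of these, 1194 (8.79%) were at least 2-fold higher in the ablated library and 495 (3.64%) at least 2-fold lower, while 11901 lay between. Higher genes reached further: 338 were at least 4-fold and 106 at least 16-fold higher, against 108 and 19 lower. In barcodes of 3000 or more UMIs alone, 12974 genes were counted, of which 1073 (8.27%) were 2-fold higher and 471 (3.63%) 2-fold lower. Of 1057 higher genes counted in both choices of barcodes, 976 were higher in both, and 424 of 464 lower genes were lower in both. Under 3000 UMIs, 849 of 862 higher genes stayed above 0 and 294 of 294 lower genes stayed below it. The full sums contain the barcodes of both depths, so this agreement is partly built in. Barcodes of 3000 or more UMIs held 87.4% of the control and 67.2% of the ablated UMIs. Of 11404 genes counted under 3000 UMIs, 7.07% were 2-fold higher and 4.16% lower, and of 11680 counted at 10000 or more UMIs, 7.53% and 4.22%. Higher genes made up 70.7% of the calls, 62.9% with TMM scaling, 60.6% with size factors and 64.7% with totals that leave out mitochondrial and ribosomal protein genes. TMM lowered every log2 ratio by 0.11 and size factors by 0.13, from a median over all counted genes of 0.10. Direction is not read from list medians within that distance of 0. The counts below are read against 8.79% and 3.64%, and the gene lists were chosen with results of these data known, so that they describe and do not test.

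**Figure D1:**
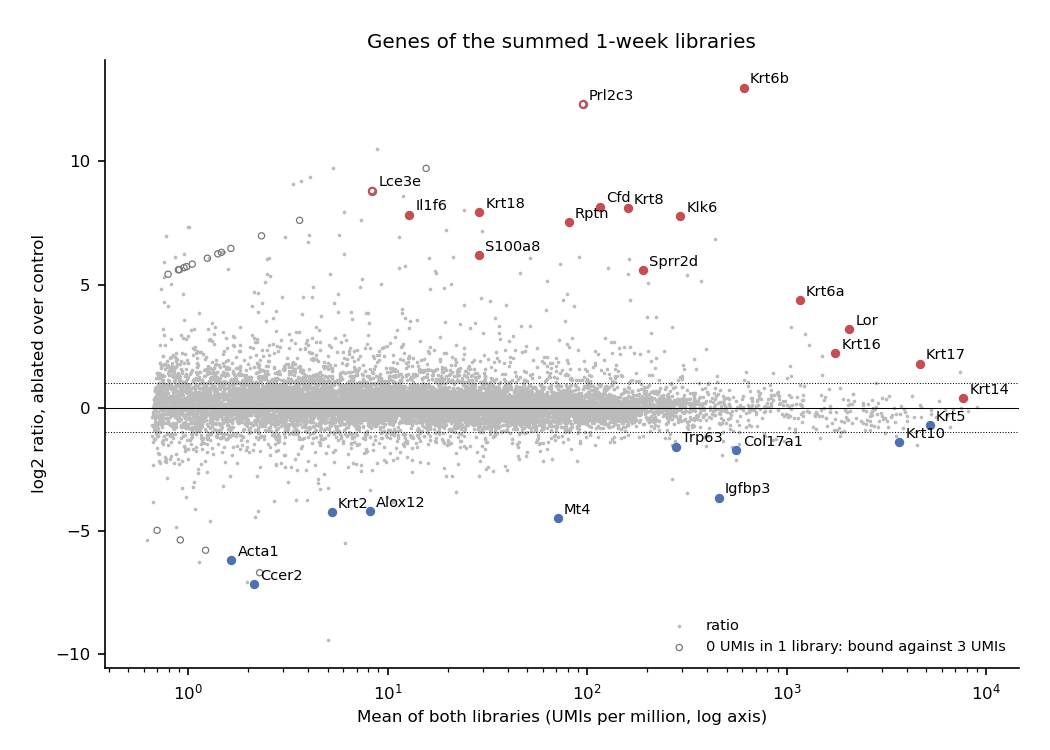
Each point is 1 of the 13590 counted genes, with its mean level in both libraries on the x axis (CPM, log scale) and the log2 ratio of ablated over control on the y axis; dotted lines mark 2-fold, and open circles are genes at 0 UMIs in 1 library, drawn at the bound against 3 UMIs. Named genes are red above 0 and blue below it, with Krt6b at 13.00 the highest of them and Ccer2 at −7.17 the lowest.

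Several genes that hold basal keratinocytes to the basement membrane were lower in the ablated library. Of 21 counted members of the basal adhesion list, 7 were 2-fold lower and 0 were 2-fold higher, 19 lay below 0 and the median log2 ratio was −0.76. Col17a1, the transmembrane collagen of hemidesmosomes, had 858 CPM (control) and 261 CPM (ablated), or a log2 ratio of −1.72 (−1.74 to −1.69). Dst, which encodes the plakin that ties keratins to hemidesmosomes, went with it at 795 and 265 CPM and −1.58 (−1.61 to −1.56). Col7a1 for anchoring fibrils had a log2 ratio of −1.54, and Lamb3, a chain of laminin 332, had −1.26. The integrin pair of the hemidesmosome lay between the thresholds, with Itga6 at −0.75 and Itgb4 at −0.78. The 2-fold lower members thus included collagens, laminin and a plakin, and not the integrin pair. The list also holds the basal keratins Krt5, Krt14 and Krt15 and the desmosome gene Perp. Krt15, given next, is among its 2-fold lower members.

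The basal keratins did not share 1 direction. Krt15 had 4874 control CPM and 2186 ablated CPM, or a log2 ratio of −1.16 (−1.17 to −1.15). Krt5 had 6443 and 3959 CPM and a log2 ratio of −0.70 (−0.71 to −0.70). Its partner Krt14 went the other way, at 6586 and 8672 CPM and 0.40 (0.39 to 0.40), and 0.74 in barcodes under 3000 UMIs. Krt5 and Krt14 form 1 heteropolymer in basal cells, and in these sums their log2 ratios had opposite signs.

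More early suprabasal genes were lower than higher. Of 15 counted members, 4 were 2-fold lower and 1 was 2-fold higher, with a median of −0.38. Krt10, the type I keratin of spinous cells, had 5293 control CPM and 2040 ablated CPM, with a log2 ratio of −1.38 (−1.38 to −1.37). Krt1, its type II partner, had 2325 and 1244 CPM and −0.90 (−0.91 to −0.89). Mt4, the metallothionein of stratified epithelia, had 136 and 6.04 CPM and −4.49 (−4.63 to −4.35). The desmosomal cadherin genes of this list split, with Dsg1a at −1.20 and Dsc1 at 1.10, the latter within 2-fold under TMM scaling.

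By contrast, the last step of differentiation was higher across its members. Of 48 counted cornified envelope and terminal differentiation genes, 41 were 2-fold higher and 2 were 2-fold lower, with a median of 3.28. In barcodes of 3000 or more UMIs, 39 of 46 were higher and 2 lower. Their levels summed to 6623 CPM (control) and 24127 CPM (ablated). Lor, the main structural protein of the envelope, had 409 and 3700 CPM, or a log2 ratio of 3.18 (3.16 to 3.20). Flg, whose product profilaggrin bundles keratin, had 11.8 and 391 CPM and 5.05 (4.96 to 5.15). Sprr1a, a small proline-rich cross-bridging protein, had 3927 and 10791 CPM and 1.46 (1.45 to 1.46). In barcodes of 3000 or more UMIs the same 3 genes had 3.45, 5.03 and 1.51, on the same side as in the full sums.

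Within the family of small proline-rich proteins, Sprr1b had a log2 ratio of 5.16 (5.09 to 5.23) and Sprr2d 5.58 (5.47 to 5.70). The Sprr2a copies are nearly identical and their reads may be split between them, so only the single value of Sprr2a3, 5.38, is given. Among late envelope genes, Lce3e had 0 control UMIs and 1136 ablated UMIs, at least 450.4-fold higher against a floor of 3 UMIs. Lce3f had 1 and 1206 UMIs, or a log2 ratio of 10.49 (8.01 to 15.79). Rptn, the fused S100 protein repetin, had 0.865 and 161 CPM and 7.54 (7.21 to 7.90). Paralogous Lce genes resemble each other, and their single values are uncertain to that extent.

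Exceptions were few and lay in recognised envelope genes. Ivl, involucrin, an early scaffold of the envelope, had 163 control CPM and 57.0 ablated CPM, or a log2 ratio of −1.51 (−1.56 to −1.46). Krt2, the keratin of upper spinous and granular cells, had 9.96 and 0.529 CPM and −4.23 (−4.76 to −3.75). The plakins Ppl and Evpl lay between the thresholds at −0.12 and −0.42, as did Scel at −0.32, Cdsn at 0.67 and Tgm3 at 0.60, while Tgm1, the transglutaminase that cross-links the envelope, was higher at 1.95. Of the scaffold genes, Ivl was thus past 2-fold on the lower side and both plakins lay within 2-fold. Under 3000 UMIs Ivl had −0.77 (−0.88 to −0.67), within 2-fold, and 0 of 43 counted members were 2-fold lower there. Krt2 still had −3.05 under 3000 UMIs, but with too few UMIs to be among those counted.

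Few barcodes carried part of this signal. For the 13 counted Lce1 genes, 1 or 2 control barcodes held 50% of the UMIs, against 2 to 42 ablated barcodes. For Lor and Flg, 51 and 77 of the 18326 ablated barcodes did so, whereas for Krt14 and Krt5 it took 945 and 906. Without each gene's 10 fullest barcodes in each library, a choice made after seeing the data, 38 members were 2-fold higher and 2 lower, and the sums were 5794 and 21220 CPM. A gene in 10 or fewer control barcodes is left without control UMIs by that choice and could not turn lower.

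**Figure D2:**
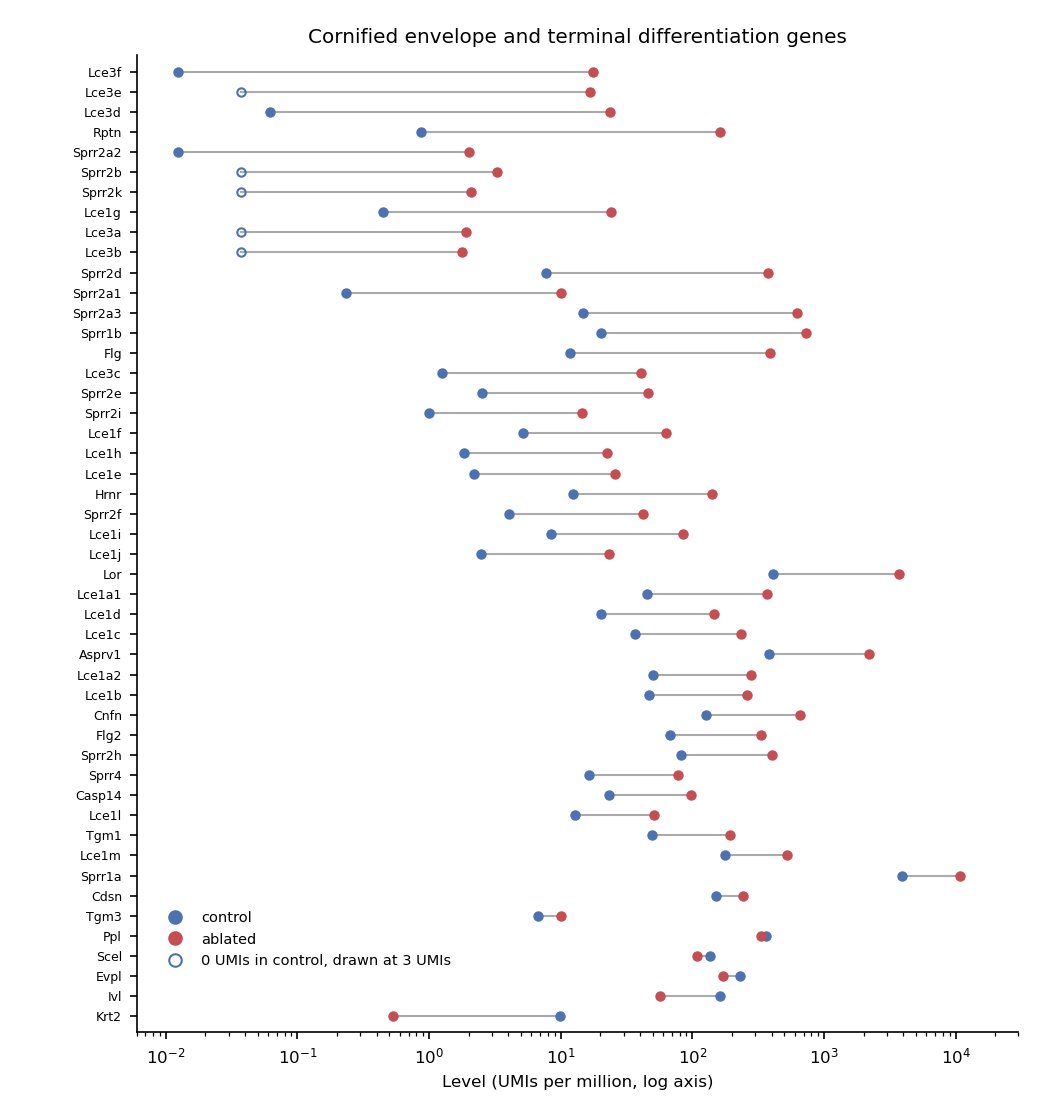
Each row is 1 of the 48 counted cornified envelope and terminal differentiation genes, with its level in the control (blue) and ablated (red) library on a log axis of CPM; open circles are genes with 0 control UMIs drawn at 3 UMIs. All but 5 rows have the ablated library to the right: Ppl, Scel, Evpl, Ivl and Krt2 have it to the left.

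Genes of several families lie next to each other, and most such windows held calls in 1 direction. From Lor to Rptn on chromosome 3 (chr3:92080271-93399442, GRCm38), the window that holds most of the epidermal differentiation complex, 49 genes were counted, of which 44 were 2-fold higher and 1, Ivl, was 2-fold lower. The median log2 ratio in it was 3.51. The kallikrein window from Klk14 to Klk5 (chr7:43690418-43851181) had 9 of 11 higher and 0 lower. From Csta1 to Stfa3 (chr16:36119946-36455392), the stefin inhibitors of cysteine proteases, 7 of 7 were higher. From Il1f8 to Il1rn (chr2:24153161-24351494), 5 of 6 were higher and 0 lower. The window of clade B serpins from Serpinb12 to Serpinb2 (chr1:106934449-107535478) was split, with 4 of 6 higher and 2, Serpinb12 and Serpinb2, lower. The windows were drawn around list members whose values were known, and paralogs within them can share reads.

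Promoters are shown for both sides of this pattern: Sprr2d, Rptn and Lce3e for the envelope genes, Krt8 for the keratins of simple epithelia that were higher, Col17a1 for the adhesion genes that were 2-fold lower, and Krt5 for a basal keratin within 2-fold. They are RefSeq windows of GRCm38.p6 from 250 bases before to 50 after the start, read 5′ to 3′ on the gene's strand. Capitals mark TGANTCA (the AP-1 type site), TATAAA, or the p53 family half-site, each searched on both strands.
Sprr2d (chr3:92338890-92339189, plus strand): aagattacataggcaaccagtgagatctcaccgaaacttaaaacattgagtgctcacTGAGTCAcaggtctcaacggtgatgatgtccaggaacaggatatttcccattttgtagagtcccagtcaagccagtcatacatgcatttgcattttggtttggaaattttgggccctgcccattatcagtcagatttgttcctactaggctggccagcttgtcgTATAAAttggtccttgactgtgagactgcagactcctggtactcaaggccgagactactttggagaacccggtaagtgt
Rptn (chr3:93393449-93393748, plus strand): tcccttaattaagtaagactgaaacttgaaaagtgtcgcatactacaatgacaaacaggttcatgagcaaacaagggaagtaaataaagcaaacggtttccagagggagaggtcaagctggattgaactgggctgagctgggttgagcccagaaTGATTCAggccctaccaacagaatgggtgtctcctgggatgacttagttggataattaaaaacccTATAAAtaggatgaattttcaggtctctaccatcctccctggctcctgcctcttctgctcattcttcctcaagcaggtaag
Lce3e (chr3:92966811-92967110, plus strand): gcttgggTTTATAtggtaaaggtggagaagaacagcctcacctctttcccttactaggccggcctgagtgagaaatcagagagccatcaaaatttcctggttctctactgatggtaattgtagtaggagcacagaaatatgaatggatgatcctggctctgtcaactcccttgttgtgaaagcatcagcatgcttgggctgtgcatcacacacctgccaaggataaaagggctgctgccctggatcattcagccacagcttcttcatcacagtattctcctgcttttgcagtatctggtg
Krt8 (chr15:102004293-102004592, minus strand): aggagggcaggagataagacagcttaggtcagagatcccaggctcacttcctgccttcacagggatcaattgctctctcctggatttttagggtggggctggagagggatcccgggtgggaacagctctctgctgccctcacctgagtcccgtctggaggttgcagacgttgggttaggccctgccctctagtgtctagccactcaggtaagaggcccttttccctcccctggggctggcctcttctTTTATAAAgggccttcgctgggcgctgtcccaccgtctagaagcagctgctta
Krt5 (chr15:101712856-101713155, minus strand): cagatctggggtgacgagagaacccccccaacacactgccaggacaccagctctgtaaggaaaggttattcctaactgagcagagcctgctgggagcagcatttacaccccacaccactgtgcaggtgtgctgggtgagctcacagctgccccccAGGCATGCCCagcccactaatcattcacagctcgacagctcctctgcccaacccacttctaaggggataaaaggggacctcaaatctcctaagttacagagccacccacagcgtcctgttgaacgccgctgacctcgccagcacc
Col17a1 (chr19:47691993-47692292, minus strand): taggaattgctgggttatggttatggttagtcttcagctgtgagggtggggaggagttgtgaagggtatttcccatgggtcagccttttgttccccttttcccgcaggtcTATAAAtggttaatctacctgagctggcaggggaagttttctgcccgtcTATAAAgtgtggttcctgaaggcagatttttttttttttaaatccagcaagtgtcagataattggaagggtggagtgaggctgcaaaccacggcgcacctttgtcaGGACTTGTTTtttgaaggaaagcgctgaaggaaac
In Sprr2d the TGANTCA match begins at −193 and TATAAA at −29 from the start, and in Rptn they begin at −96 and −31. Lce3e has no TGANTCA in its window, and its only TATAAA is on the opposite strand, from −243. In Krt8 the capitals are TATAAA on both strands, overlapping, from −3. The half-site begins at −95 in Krt5 and at 16 in Col17a1, which also has TATAAA at −140 and −91. TGANTCA was in 7.81% of all 32851 windows, which belong to 27025 genes. The other shares are of genes matched by symbol, each counted once if any of its windows held the motif. Shares of windows and of genes are thus unlike measures. For TGANTCA they were 6.79% of 10485 matched counted genes, 118 of 848 (13.9%) 2-fold higher genes and 36 of 354 (10.2%) 2-fold lower genes. TATAAA was in 13.6% of all windows, in 9.23% of the matched counted genes, in 127 of the 848 and in 71 of the 354. The half-site was in 8.36% of all windows, and in 8.39%, 10.5% and 8.47% of those gene sets in the same order. A match is a description of letters, not of binding.

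Keratins of wounded epidermis were higher in the ablated library. All 4 were 2-fold higher, and their levels summed to 2806 CPM (control) and 13512 CPM (ablated). Krt6b (chr15:101676023-101680287) had 12 control UMIs and 82808 ablated UMIs, 0.148 and 1217 CPM, or a log2 ratio of 13.00 (12.20 to 13.96). In the ablated library 61 barcodes held 50% of its UMIs. Krt6a had 106 and 2218 CPM and 4.38 (4.35 to 4.41). Krt16 had 621 and 2876 CPM and 2.21 (2.20 to 2.23), and Krt17 had 2078 and 7201 CPM and 1.79 (1.78 to 1.80). Krt6b and Krt6a are close paralogs, so reads of 1 may be counted for the other or dropped. Krt6a, Krt16 and Krt17 also mark the outer root sheath and companion layer of the hair follicle.

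Keratins of simple epithelia, made in embryonic surface ectoderm and in Merkel cells, included 3 that were higher, from a low base. Krt8 (chr15:101996698-102004482) had 93 control UMIs and 21615 ablated UMIs, 1.15 and 318 CPM, or a log2 ratio of 8.11 (7.82 to 8.42). In the ablated library 164 barcodes held 50% of its UMIs. Krt18, its partner, had 0.235 and 57.4 CPM and 7.94 (7.29 to 8.67). Krt19 had 27 and 125 UMIs and 2.46 (1.85 to 3.12), with 50% of the ablated UMIs in 2 barcodes, and Krt7 had −0.21. Of 5 counted members 3 were 2-fold higher and 0 lower, or 2 without each gene's 10 fullest barcodes. The Merkel cell marker list, which holds Krt8 and Krt18, summed to 8.29 and 379 CPM. Of its 4 counted members 3 were 2-fold higher and 1, Syt1 at −2.54, lower. Under TMM scaling or size factors only 2 were higher and 1 lower. Without each gene's 10 fullest barcodes, 2 of 3 counted members were higher and 1 lower. Defining members of the Merkel cell list were at or near 0 in both libraries: Atoh1 had 0 and 0 UMIs, Sox2 21 and 17, Krt20 2 and 2 and Isl1 3 and 1. Chga had 1 and 82 UMIs, 50% of them in 3 ablated barcodes.

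Most proteases that shed the outermost layer and most of their inhibitors were higher. Of 22 counted members 18 were 2-fold higher and 2 lower, with a median of 2.53. Their levels summed to 9474 CPM (control) and 11254 CPM (ablated), a log2 ratio of 0.25. Klk7, a kallikrein that cleaves corneodesmosomes, had 196 control CPM and 1913 ablated CPM, or a log2 ratio of 3.29 (3.26 to 3.31). Klk6 had 2.67 and 584 CPM and 7.77 (7.58 to 7.97). Spink5, whose product inhibits these kallikreins, had 463 and 1239 CPM and 1.42 (1.40 to 1.44). Enzyme and inhibitor thus lay on the same side, and Stfa2, a stefin, had 1 and 724 UMIs with a log2 ratio of 9.75 (7.27 to 15.06). The clade B serpins split: Serpinb3a had 7.17, whereas Serpinb2, an inhibitor linked to plasminogen activation, had 6644 and 2344 CPM and −1.50 (−1.51 to −1.49), and Serpinb12 had −1.35.

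Lipid barrier genes were divided. Of 24 counted members 12 were 2-fold higher and 2 lower, with a median of 0.75, but only 7 were higher under TMM scaling or size factors. Alox12b, the lipoxygenase that oxidises ceramide-bound linoleate, had a log2 ratio of 2.75, the lipase gene Lipk 3.83 and Elovl3, for fatty acid elongation, 3.03. Alox12, the platelet-type lipoxygenase, had 15.5 control CPM and 0.838 ablated CPM, −4.21 (−4.61 to −3.82), and Sptlc3, a subunit of serine palmitoyltransferase, had −1.24.

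Calls among junction genes were in claudins and a few desmosome genes. In the tight junction list 4 of 17 were 2-fold higher, all of them claudins, and 0 lower. Cldn4 had 492 control CPM and 1576 ablated CPM, or a log2 ratio of 1.68 (1.66 to 1.70), Cldn7 had 4.90, Cldn3 2.43 and Cldn23 1.09, the last within 2-fold under TMM scaling. Cldn1, the claudin whose loss breaks the mouse water barrier, had 691 and 607 CPM and −0.19 (−0.21 to −0.17). Among 14 desmosome genes 2 were higher and 1 lower, with Pkp2 at 2.60 and Dsp, desmoplakin, at −0.43. With TMM scaling those counts were 1 and 3, so the balance of this list turned with the scaling.

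Regulators of differentiation were mixed. Of 21 counted factors 4 were 2-fold higher and 2 lower. Elf3, an ETS factor of epithelia, had 6.19 control CPM and 153 ablated CPM, or a log2 ratio of 4.63 (4.50 to 4.76). Ehf, its relative, had 1.40, Prdm1 1.56 and Barx2 1.57. Gata3 had 189 and 82.3 CPM and −1.20 (−1.24 to −1.16), and Sox6, a SOX factor outside that list, had 40.2 and 3.75 CPM and −3.42 (−3.61 to −3.24). The AP-1 list had 0 of 8 past 2-fold in either direction, with Fosl1 at −0.99, which passes 2-fold lower under TMM scaling, and Fos at 0.75.

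Several interleukin 1 family ligands were higher, and the decoy receptor Il1r2 was lower. Of 15 counted members 7 were 2-fold higher and 1 lower, with a median of 0.61, which was 0.19 under 3000 UMIs with 6 of 14 higher. Il1f6 (interleukin 36 alpha) had 9 control UMIs and 1736 ablated UMIs, or a log2 ratio of 7.84 (6.91 to 8.97). Il1f9 (interleukin 36 gamma) had 3.04 and 62.0 CPM and 4.35 (4.16 to 4.54), Il18 had 9.98 and 75.0 CPM and 2.91 (2.80 to 3.02), and Il1a had 2.42. Il1b at 0.57 and the receptor antagonist Il1rn at 0.61 lay within 2-fold. Il1r2, which binds interleukin 1 without signalling, had 109 and 41.5 CPM and −1.40 (−1.46 to −1.34). The 7 higher members were thus all ligands or ligand-like antagonists.

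Other signals to immune cells followed in part. Tslp, the cytokine of epithelia that promotes type 2 immunity, had 9.22 control CPM and 162 ablated CPM, or a log2 ratio of 4.14 (4.03 to 4.24), with 50% of the ablated UMIs in 43 barcodes. Il24 had 5.47, and Il20ra, a receptor chain for interleukins 19, 20 and 24, had 7.33 and 0.544 CPM and −3.75 (−4.27 to −3.27). In that list of 22 cytokines and receptors, 6 were 2-fold higher and 1 lower. Among 21 chemokines 10 were 2-fold higher and 0 lower, or 7 of 18 in barcodes of 3000 or more UMIs and 8 without each gene's 10 fullest barcodes. Cxcl1, which attracts neutrophils, had 30.8 and 112 CPM and 1.87 (1.80 to 1.93), Cxcl2 had 1.75 and Cxcl5 rested on 1 and 105 UMIs, 6.96 (4.46 to 12.28). Cxcl14, made by resting keratinocytes, had 701 and 669.6 CPM and −0.07, and Ccl22 had 5.02 with 50% of its ablated UMIs in 7 barcodes.

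Antimicrobial peptides and alarmins had a median of 2.18, with 9 of 16 counted members 2-fold higher and 0 lower. Their levels summed to 5268 CPM (control) and 5688 CPM (ablated), so the list total was nearly the same. S100a8 had 62 control UMIs and 3865 ablated UMIs, or a log2 ratio of 6.21 (5.85 to 6.60), and S100a9, its partner in calprotectin, had 6.07 (5.81 to 6.34). Slpi, a secreted inhibitor of neutrophil elastase, had 4.87 and 250.5 CPM and 5.69 (5.54 to 5.83). Lcn2, which withholds iron from bacteria, had 7.46 and 117 CPM and 3.98 (3.86 to 4.10). S100a10 and S100a11, members of the same family with constitutive roles, had −0.11 and −0.08. Neutrophils also make S100a8, S100a9 and Lcn2. Of their own markers, Ly6g, Ngp, Ltf and Mmp8 had 0 control UMIs and 1 to 2 ablated UMIs, Csf3r 1 and 6 and Retnlg 1 and 15, whereas Cxcr2 had 6 and 343. Of the neutrophil list, S100a8 and S100a9 among its members, 4 of 4 counted genes were 2-fold higher, also without each gene's 10 fullest barcodes. Cxcr2, with 6 control UMIs, could not turn lower under that choice. The neutrophil list summed to 3.15 and 168 CPM, most of it S100a8 and S100a9, and the part of neutrophils in the alarmin values was not tested.

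Growth factor and interferon lists held some calls. Among 13 EGF family genes 3 were 2-fold higher and 0 lower, or 6 higher at 10000 or more UMIs, with Hbegf, a ligand shed after wounding, at 173 and 409 CPM and 1.24 (1.21 to 1.27), Ereg at 2.34, Btc at 1.61 and Egfr at −0.32. Among 23 interferon-stimulated genes 4 were higher and 1 lower, with a median of 0.30, but 2 were higher under 3000 UMIs, with a median of −0.04, and 2 at 10000 or more: Irf7 had 1.47, Ifit1 1.66 and Rsad2 1.64, while Usp18, which restrains interferon signalling, had 12.3 and 2.45 CPM and −2.33 (−2.57 to −2.09). The antigen presentation list had 0 of 20 past 2-fold in either direction, or 1 lower under TMM scaling. The stress and dissociation list, which trypsin digestion can move, had 2 of 28 higher and 0 lower, with a median of 0.41. In it 25 members lay above 0 and 3 below, and the levels summed to 19157 CPM (control) and 24301 CPM (ablated). The 2 higher members, Cebpd at 1.34 and Socs3 at 1.01, were both within 2-fold under 3000 UMIs. Socs3 was so under TMM scaling and size factors.

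Cell cycle genes were shifted as a list, in small steps. Of 41 counted members 17 were 2-fold higher and 0 lower, 40 lay above 0 and the median was 0.79, and their levels summed to 866 CPM (control) and 1426 CPM (ablated). Plk1, a mitotic kinase, had 3.25 and 13.7 CPM and a log2 ratio of 2.08 (1.88 to 2.28), Rrm2 had 1.64 and Aurka 1.56. Mki67 had 88.8 and 132 CPM and 0.57 (0.53 to 0.62), Top2a 0.39 and Pcna −0.11. The count turned with depth: 30 members were higher in barcodes under 3000 UMIs, 14 in those of 3000 or more and 8 in those of 10000 or more. TMM scaling gave 15 and size factors 13. In the 1-day libraries, where 4.09% of 13440 counted genes were 2-fold higher and 2.43% lower, 0 of 41 were higher and the median was 0.04.

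Growth arrest genes had 1 of 20 higher and, with Trp63 itself, 1 lower. Cdkn2a, which encodes p16 and p19ARF, had a log2 ratio of 1.79, with 1.96 at 3000 or more UMIs, where it had fewer than 100 UMIs, and 0.92 under 3000. Cdkn1a, which encodes p21, had −0.34. Sfn, the 14-3-3 protein stratifin of stratified epithelia, had 8368 control CPM and 4820 ablated CPM, −0.80 (−0.80 to −0.79). The Wnt list had 5 of 39 higher and 4 lower, but only 1 higher under 3000 UMIs, 1 at 10000 or more and 3 as a mean of CPM per barcode. All 4 lower members were ligands, with Wnt10b at −1.93 (−2.32 to −1.56), Wnt3a at −1.90 (−2.59 to −1.26), Wnt5a at −1.79 and Wnt16 at −1.07, the higher ones were Wnt7a at 1.82, Wnt11 at 1.46, the secreted inhibitors Sfrp2 at 1.50 and Wif1 at 1.21, and the receptor Fzd4 at 1.09. Of 16 Notch genes, Hey1, a target, was higher at 1.40, though no member was so under 3000 or at 10000 or more UMIs, and the ligand Dll1 and the non-canonical Dlk2 were lower at −1.38 and −1.08, while the receptor Notch1 had −0.79.

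**Figure D3:**
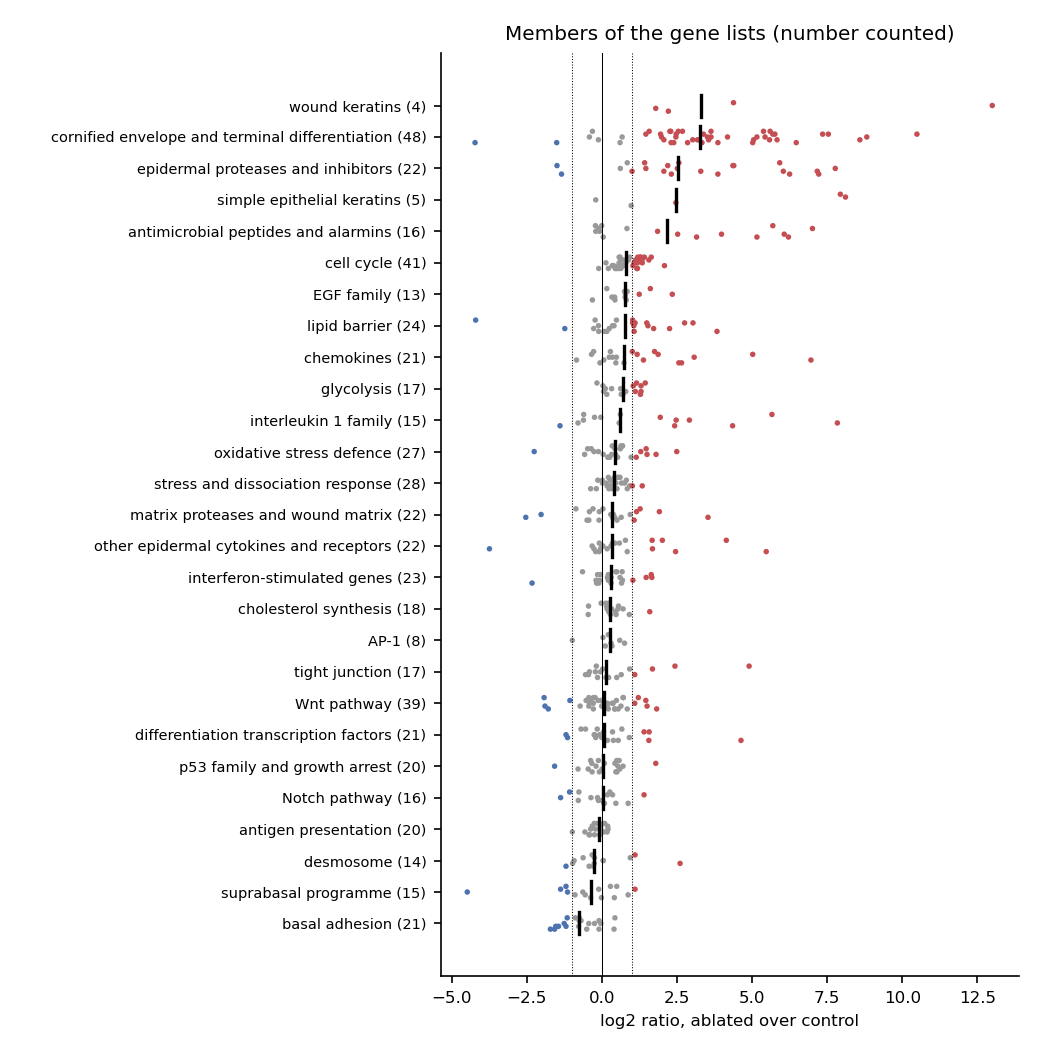
Rows are the 27 gene lists, with the number of counted members in brackets; points are members by log2 ratio of ablated over control, red at 2-fold or more higher and blue at 2-fold or more lower, with dotted lines at 2-fold and black bars at list medians. Medians run from 3.30 for the wound keratins to −0.76 for basal adhesion.

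Markers of other cell types were read beside these values. Of the hair follicle, 6 of 9 upper follicle markers were 2-fold higher and 0 lower, with Krt79 at 856 and 2139 CPM and 1.32 (1.31 to 1.33), and 9 of 12 sebaceous markers were higher. Under TMM scaling or size factors, 4 upper follicle and 8 sebaceous markers were higher. The upper follicle list shares Krt17, Klk10, Cst6, Lrig1 and Defb6 with lists given above, and the sebaceous list Elovl3 and Elovl6. Outer root sheath and inner bulge markers, which include Krt6a, Krt16 and Krt17, had 5 of 6 higher, and bulge markers had 0 of 9 past 2-fold. Inner root sheath and hair shaft markers summed to 21.6 control CPM and 343 ablated CPM, 319 of the latter being Tchh, trichohyalin, with a log2 ratio of 6.04 (5.90 to 6.19). Several genes given above as terminal differentiation or wound genes are also made in the follicle, and the part of its cells in those values was not tested.

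Immune and dermal markers moved in different directions. T cell markers were below 0 in 14 of 14 counted members and 2-fold lower in 4, with Trdc, a chain of the gamma delta receptor of resident epidermal T cells, at 10.6 and 3.78 CPM and −1.49 (−1.69 to −1.28), and summed to 339.7 and 194 CPM. That count was 6 under TMM scaling or size factors, 5 of 12 at 3000 or more UMIs and 14 of 14 under 3000, where the sums were 1300 and 370.2 CPM. Langerhans markers had 2 of 12 higher and 0 lower, or 2 higher and 3 lower under 3000 UMIs, with Cd207, langerin, at 91.3 and 63.3 CPM and −0.53 (−0.58 to −0.47). Epcam, which Langerhans cells share with follicle keratinocytes, had 612 and 1397 CPM and 1.19 (1.18 to 1.21). No pan-leukocyte marker of 9 passed 2-fold in the full sums or at 3000 or more UMIs, but 5 of 9 were 2-fold lower under 3000 UMIs, where they summed to 518 and 258 CPM. Under 3000 UMIs there were 6091 control barcodes with 10213094 UMIs and 14243 ablated barcodes with 22317667 UMIs. CPM is a share of those totals, so lower T cell or leukocyte CPM there need not mean fewer UMIs of these markers. Fibroblast markers had 7 of 13 lower, with Col1a1 at −1.48 (−1.55 to −1.41), whereas endothelial markers had 8 of 11 higher (5 under TMM scaling) and smooth muscle markers 5 of 10 higher. Under 3000 UMIs 3 of 11 endothelial and 0 of 9 smooth muscle markers were higher. Macrophage markers summed to 44.3 and 64.0 CPM and mast cell markers to 2.74 and 0.603 CPM. Melanocyte markers summed to 45.4 and 59.4 CPM, but turned with depth, with 24.5 and 47.7 CPM at 3000 or more UMIs and 189.9 and 83.3 CPM under 3000. Schwann cell markers summed to 78.5 and 90.8 CPM, and to 64.9 and 50.9 CPM at 3000 or more UMIs.

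Adipocyte and blood markers were concentrated in few barcodes. Adipocyte markers summed to 42.2 control CPM and 432 ablated CPM, and Adipoq had 1 and 457 UMIs with 50% of them in 7 barcodes. Without each gene's 10 fullest barcodes, the sums were 25.1 and 229 CPM, and 5 of 5 counted members were 2-fold higher with and without them. Adipoq, with 1 control UMI, could not turn lower under that choice. Erythrocyte markers had 0 of 5 higher and 4 lower and summed to 219 and 95.8 CPM, with 50% of each haemoglobin gene's control UMIs in 3 to 6 barcodes. Without each gene's 10 fullest barcodes the sums were 34.4 and 72.9 CPM, with 3 genes higher and 0 lower, so that direction rests on a few control barcodes. Xist had 272 and 141 CPM and the Y-linked Ddx3y 51.0 and 31.4 CPM, so both libraries held cells of both sexes, and the part of sex in any value was not tested.

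**Figure D4:**
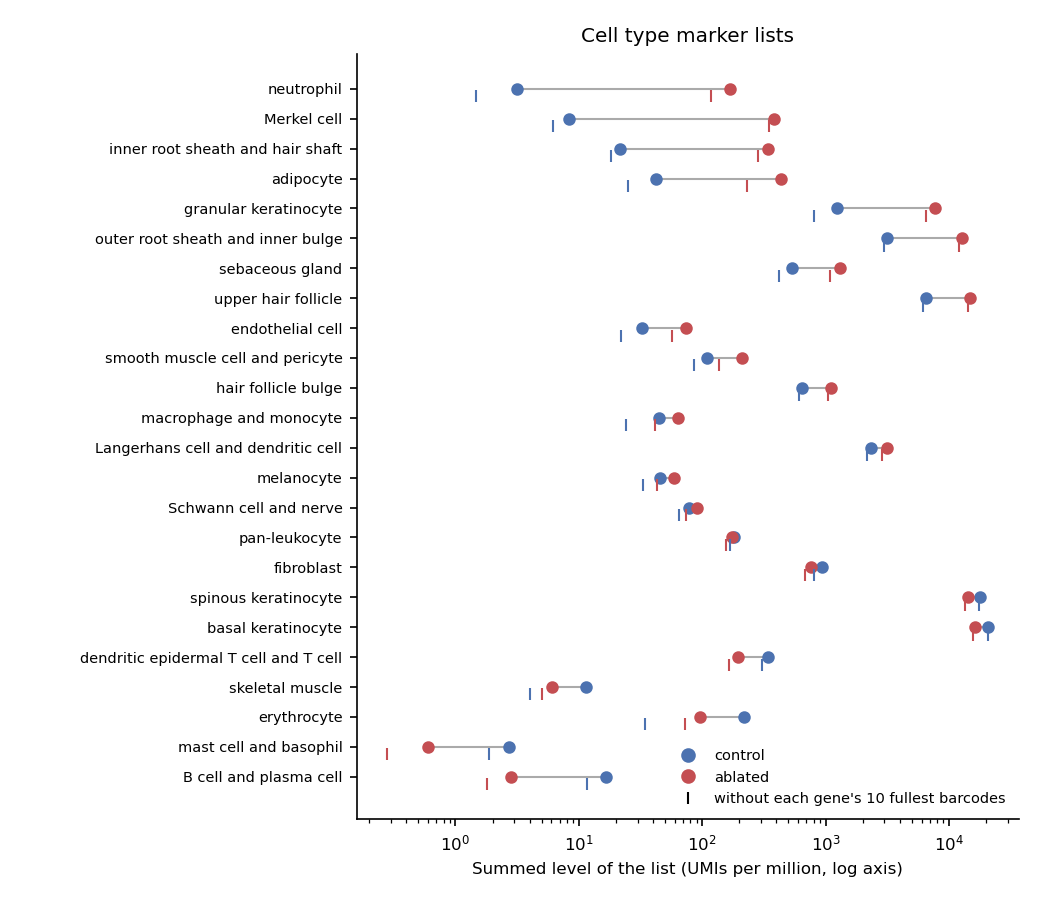
Each row is a cell type marker list, with its summed level in the control (blue) and ablated (red) library in CPM on a log axis; small ticks give the sums without each gene's 10 fullest barcodes. Granular keratinocyte markers go from 1240 to 7651 CPM, and the erythrocyte ticks lie in the opposite order to the points.

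The 15 genes at each end of the transcriptome, ranked by the nearer bound of the interval, were read for how many barcodes carried them. Of the 15 highest, 10 are named above or belong to families named there: Krt6b, Krt8, Krt18, Lce3d, Lce3e, Lce3f, Klk6, Stfa2, Rptn and Il1f6. The other 5 had at least 50% of their ablated UMIs in 8 or fewer barcodes. Prl2c3, a placental prolactin relative, had 0 control UMIs and 12920 ablated UMIs, at least 5123-fold higher against 3 UMIs, with 50% of its UMIs in 4 barcodes. Prl2c2, a near-identical copy, was at least 843-fold higher with 50% of its UMIs in 3 barcodes. Cfd and Cyp2e1, known from adipocytes and liver, and Hp, haptoglobin, had log2 ratios of 8.17 (7.82 to 8.54), 9.36 (6.88 to 14.67) and 8.02 (7.29 to 8.85), each with 50% of the ablated UMIs in 7 or 8 barcodes. Without each gene's 10 fullest barcodes, Cfd had 7.17 (6.77 to 7.60) and Hp 8.37 (7.01 to 10.25). Prl2c3, Prl2c2 and Cyp2e1 then had 0 control UMIs and 4803, 525 and 207 ablated UMIs. A gene in 10 or fewer control barcodes is left with 0 control UMIs by that choice. Prl2c3, Prl2c2 and Cyp2e1 thus could not turn lower, and their values show only that ablated UMIs remained beyond 10 barcodes.

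The low end held genes of varied function. Igfbp3, which binds insulin-like growth factors, had 843 control CPM and 67.1 ablated CPM, or a log2 ratio of −3.65 (−3.69 to −3.61), which was −4.53 at 3000 or more UMIs and −2.46 under 3000. Ifi202b, an interferon-inducible nuclear protein, had 579 and 52.4 CPM and −3.47 (−3.52 to −3.42). Adh6a and Adh6b, alcohol dehydrogenases that lie side by side, had −5.51 (−6.27 to −4.84) and −4.45 (−5.37 to −3.65). Dio2, which activates thyroid hormone, had −3.85 (−4.16 to −3.55), Guca2a, the peptide guanylin, −3.75 (−4.06 to −3.46) and Cdh4, retinal cadherin, −3.64 (−3.95 to −3.35). Jchain, the joining chain of secreted antibodies, rested on 317 and 2 UMIs, Ccer2 on 342 and 2, and Acta1, skeletal muscle actin, on 263 and 3 with 50% of the control UMIs in 1 barcode. The remaining 5, Mt4, Alox12, Krt2, Il20ra and Sox6, are given above.

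The 1-day libraries are set beside these values without a test, since the kit and the animals differ and fewer genes passed 2-fold at 1 day, 4.09% higher and 2.43% lower. Cornified envelope genes had 26 of 46 counted members 2-fold higher at 1 day with a median of 1.22, against 41 of 48 and 3.28 at 1 week. Basal adhesion genes had 7 of 21 lower at both times, with medians of −0.36 and −0.76. Krt8 had a log2 ratio of 9.54 at 1 day and 8.11 at 1 week, and Krt6b had 4.08 and 13.00. Krt14 had −0.49 at 1 day and 0.40 at 1 week, and Krt10 had −0.23 and −1.38. Upper follicle markers had 1 of 9 and 6 of 9 higher, and sebaceous markers 1 of 12 and 9 of 12. With TMM scaling the 1-week counts were 4 of 9 and 8 of 12. Krt8 was thus higher at both times, Krt14 had opposite signs, and the values of Krt6b and of the follicle lists lay further from 0 at 1 week.

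**Figure D5:**
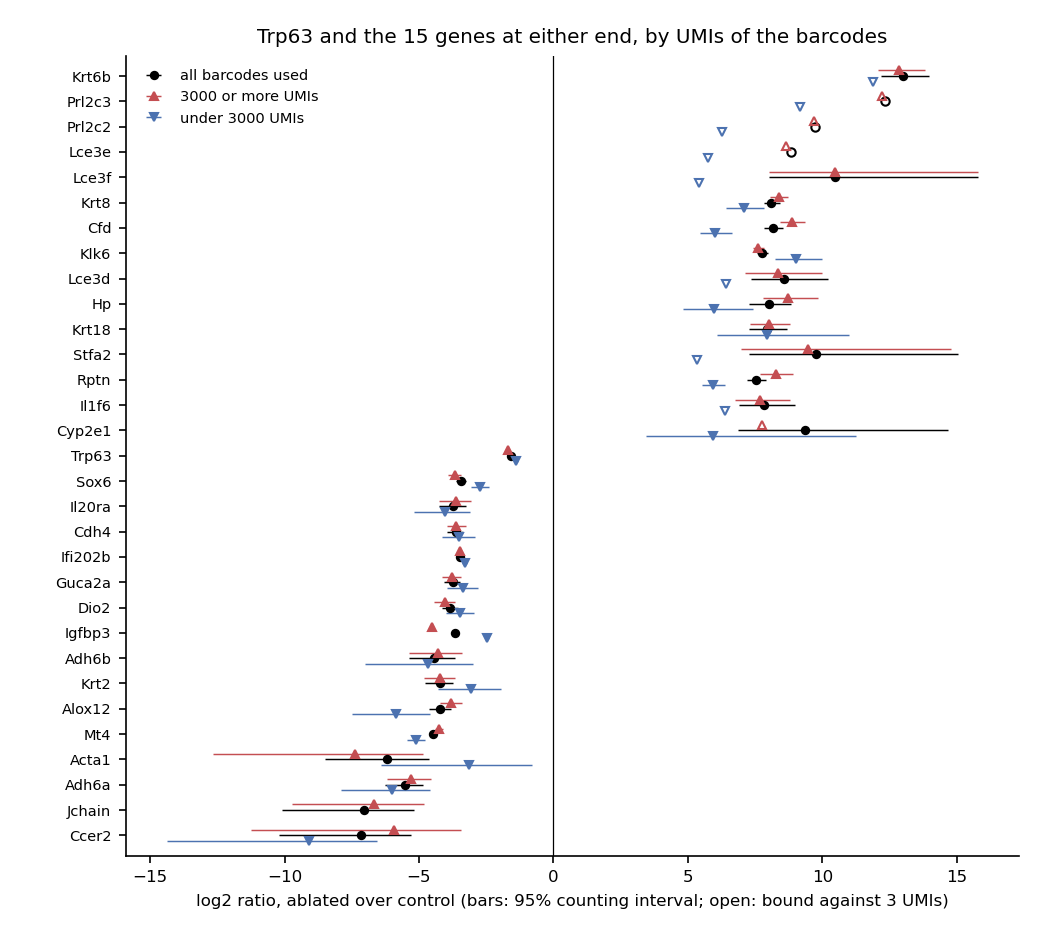
Rows are Trp63 and the 15 genes at each end, with the log2 ratio of ablated over control in all barcodes used (black), those of 3000 or more UMIs (red) and those under 3000 (blue); bars are 95% counting intervals and open symbols are bounds against 3 UMIs. Every symbol drawn is on the same side of 0 for its gene. For the 15 genes at each end, the black and red symbols agree in sign because the choice of genes required it. Igfbp3 has −4.53 at 3000 or more UMIs and −2.46 under 3000.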

How the data were processed

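The authors deposited UMI counts per gene and barcode for 4 libraries, 1 per group. Per the submitters' processing notes, they were made with Cell Ranger 5.0.1, mm10 and Seurat; the annotation release is not given in the sources used here. Raw UMI counts were summed per library over barcodes of at least 1059 UMIs and at most 15% mitochondrial UMIs. No doublets were removed and no clusters made. Log2 ratios of CPM have exact (Clopper-Pearson) 95% intervals and CPM exact Poisson limits, covering counting error only; with 1 library a group there is no test. Ratios and calls were checked on simulated counts with Poisson error only. That checks the arithmetic, and covers neither UMIs concentrated in few barcodes nor differences between animals. TMM scaling used edgeR 4.0.16 in R 4.3.3; other steps used Python 3.11.15, numpy 2.4.6, pandas 2.3.3, scipy 1.17.1 and matplotlib 3.10.9. Coordinates are from GENCODE M21, which held 32235 of 32285 gene IDs.

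Members and gene lists were chosen with earlier results of these data known. Named were Trp63, the 15 genes at each end by the nearer interval bound among those with at least 200 UMIs (unnamed models, mt-, ribosomal and antigen receptor genes left out), and, per list, up to 4 members with the most UMIs and 3 with the largest ratio; other list members named were chosen after their values were seen. Absent from the files under the symbols used were Sprr2g, Mx1, Mx2, Ctgf and Krt85, and Ccl19, Ccl27a and Aldoa name more than 1 ID and were left out. Some genes are not reported here. Alternatives were 14 settings of scaling, depth, filters and barcodes.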

Additional observations from a re-analysis of the deposited data

Results flagged for a closer look

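For 2 results the 1-week and 1-day values lay far apart on opposite sides of 0, and the difference was not tested: the kits and animals differ, and each value is 1 library against 1. Ccer2 had a log2 ratio of −7.17 at 1 week, from 342 control and 2 ablated UMIs, and 3.03 at 1 day. The erythrocyte markers had a median log2 ratio of −1.10 at 1 week and 1.64 at 1 day, and without each gene's 10 fullest barcodes 3 of them were 2-fold higher at 1 week too. Opposite signs with a smaller value at 1 of the times, or too few genes counted at 1 day, were also seen for Krt14 and for the medians of the pan-leukocyte (0.14 at 1 day and −0.22 at 1 week), endothelial (−0.28 and 1.09), smooth muscle (−0.46 and 1.09), inner root sheath (−0.34 and 1.58), skeletal muscle (0.15, from 1 gene, and −2.33) and adipocyte lists (−0.81, from 1 gene, and 6.94). The 1-day medians of the spinous (0.12) and suprabasal (0.10) lists lay too near 0 to be read for a direction. So did those of the interferon (−0.13), oxidative stress (−0.10), melanocyte (−0.11), Schwann cell (−0.07) and bulge (−0.03) lists. At 1 week this held for the Wnt (0.07) and growth arrest (0.04) medians. These lists also had medians of opposite sign at the other time.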

How the results depend on the processing

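Over 14 settings and 84 results, 711 of 784 comparisons of counts stayed within 1.5 times the reported count, and 0 of 27 named gene ratios reversed. At 3000 or more UMIs the sign of these ratios could not reverse, because the choice of genes required the same sign there. TMM scaling and size factors lowered every log2 ratio by 0.11 and 0.13, too little to reverse genes chosen as the most extreme. List counts of 0 that stayed 0 are among the count comparisons. The agreement is thus partly built in. The log2 ratio of Trp63 was −1.68 with TMM, −1.71 with size factors, −1.66 with totals without mitochondrial and ribosomal protein genes, −1.68 at 3000 or more UMIs, −1.38 under 3000, −1.80 at 10000 or more, −1.54 without the deepest 1% of barcodes and −1.45 as a mean of CPM per barcode. Genes 2-fold higher and lower numbered 1014 and 599 with TMM, 969 and 630 with size factors and 1126 and 508 without each gene's 10 fullest barcodes. A minimum of 20 UMIs gave 1770 higher and 796 lower genes, and no minimum gave 3917 higher and 2615 lower, by testing more scarce genes. Under 3000 UMIs, 30 cell cycle genes and 1 Wnt gene were higher and 2 Wnt genes lower, and at 10000 or more UMIs 8 cell cycle genes and 6 chemokines were higher; the cause was not tested. No paired analysis was possible because each group had 1 library, and no library could be left out. Genes under 100 UMIs and differences between animals are beyond this depth and design.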

Other observations

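Some glycolysis genes were higher in the ablated library. Of 17 counted members 7 were 2-fold higher and 0 lower, against 8.79% of all counted genes, with a median log2 ratio of 0.70, and their levels summed to 2851 CPM (control) and 5919 CPM (ablated). Pkm, pyruvate kinase, had 335 and 911 CPM and a log2 ratio of 1.44 (1.42 to 1.46), and Gapdh had 609.9 and 1498 CPM and 1.30 (1.28 to 1.31). Eno1 had 1.30, Tpi1 1.28, Hk2 1.15, Pgk1 1.11 and Ldha 1.04, steps from the trapping of glucose to lactate. With TMM scaling 6 were higher and with size factors 5. In the 1-day libraries 0 of 17 were higher, against 4.09% of all genes counted there, and the median was 0.06.

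Genes of oxidative stress defence had 6 of 27 higher and 1 lower, or 3 higher at 10000 or more UMIs. Hmox1, heme oxygenase, had 1217 control UMIs and 5729 ablated UMIs, or a log2 ratio of 2.49 (2.40 to 2.58), and Nqo1, a quinone reductase, had 1.47. Glutathione transferases lay on both sides, with Gsta4 at 1.80, Gsta3 at 1.14 and Gsta2 at −2.26. In the list of matrix proteases and wound matrix 5 of 22 were higher and 2 lower, the sums were 2340 and 1729 CPM, and under 3000 UMIs 2 of 20 were higher with a median of −0.07. Mmp10, stromelysin 2, had 1.91 and Mmp3, stromelysin 1, −2.03, Has3, a hyaluronan synthase, had 14.2 and 2.44 CPM and −2.54 (−2.79 to −2.31), and Thbs1, thrombospondin 1, had 1421 and 775 CPM and −0.87 (−0.89 to −0.86). Timp1 had 3.53, with 50% of its ablated UMIs in 3 barcodes.

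Iglv2, a lambda light chain segment noticed after the values were seen, had 820 control UMIs and 1 ablated UMI. The B cell and plasma cell markers, Jchain among them, summed to 16.5 and 2.82 CPM, and skeletal muscle markers to 11.5 and 6.11 CPM, or 3.99 and 5.03 CPM without each gene's 10 fullest barcodes.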
